A study of Mus musculus with 200 samples.

Results

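The cornified envelope and epidermal genes described here are 55 of the 38406 genes in the count table. They were chosen by name: every gene whose symbol begins with Sprr (16 genes) or Lce (21 genes), plus 18 named genes of epidermal terminal differentiation. The rule itself uses no measured value, but earlier results of these data were known when it was set. By role they comprise the 16 small proline-rich proteins (Sprr), the 21 late cornified envelope proteins (Lce), 5 large proteins of the S100-fused type (Flg, Flg2, Rptn, Hrnr and Tchh), the 2 scaffold proteins Lor and Ivl, the 3 adhesion genes Dsg1a, Dsc1 and Cdsn, the 3 enzymes Tgm1, Tgm3 and Casp14, and the 5 small, secreted or surface proteins Krtdap, Calm4, Sbsn, Dmkn and Ly6d. In all they received 11974 counts, found in 175 of 200 cells. Of the 55 genes, 15 had 0 counts in every cell, 12 had 1 to 19 counts, and 28 had at least 20.

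The data are transcript counts from single medullary thymic epithelial cells, sorted into wells as CD45-, Ly51- and MHCII+ cells that were positive for GFP. Every mouse was a female of the B6xNOD background at 5 weeks of age, and every mouse, the controls included, carried the Aire-GFP transgene, which marks cells that switch on Aire. The 4 groups were wild type with high GFP (WT GFPhi, 61 cells), wild type with low GFP (WT GFPlo, 39 cells), Aire knockout with high GFP (KO GFPhi, 48 cells) and Aire knockout with low GFP (KO GFPlo, 52 cells). They were sorted on 2 dates, with 23, 18, 9 and 22 cells of these groups, in that order, on the first date and 38, 21, 39 and 30 on the second. No animal is named in the labels, so a group is 1 sample here and nothing was tested. Animal and group cannot be told apart.

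The cornified envelope is the cross-linked protein shell that replaces the plasma membrane of a keratinocyte as it dies at the skin surface. Transglutaminases join involucrin, loricrin, Sprr and Lce proteins into the shell, and filaggrin-type proteins pack the keratin beneath it. In the thymic medulla such genes are known from 2 settings: as tissue-restricted antigens that Aire-expressing cells transcribe in scattered fashion, and as products of cells past the Aire stage that take on features of cornifying epidermis, as in Hassall's corpuscles.

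The sequences upstream of 5 members are shown because these genes are the named markers of terminal differentiation (Krtdap, Calm4, Rptn and Sprr1b) or the leading Sprr gene (Sprr1a). Each is the 250 bases before the RefSeq transcription start on GRCm38.p6, read 5′ to 3′ on the gene's strand. Capitals mark the motifs TGANTCA (bound by AP-1, the Jun and Fos proteins), AACNGGTT (bound by Grainyhead-like factors) and TATAAA (the TATA box), which were searched on both strands and did not overlap.
Krtdap, chr7:30787655-30787904, plus strand: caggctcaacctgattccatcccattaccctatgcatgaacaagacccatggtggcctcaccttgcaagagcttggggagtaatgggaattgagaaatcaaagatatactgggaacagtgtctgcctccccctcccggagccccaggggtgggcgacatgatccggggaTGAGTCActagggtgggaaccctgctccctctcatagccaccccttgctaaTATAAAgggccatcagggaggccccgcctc
Calm4, chr13:3837507-3837756, plus strand: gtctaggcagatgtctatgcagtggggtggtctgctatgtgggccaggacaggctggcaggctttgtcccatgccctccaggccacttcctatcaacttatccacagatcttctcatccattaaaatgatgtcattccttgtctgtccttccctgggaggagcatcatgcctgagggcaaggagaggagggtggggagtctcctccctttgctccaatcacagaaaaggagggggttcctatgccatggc
Rptn, chr3:93393449-93393698, plus strand: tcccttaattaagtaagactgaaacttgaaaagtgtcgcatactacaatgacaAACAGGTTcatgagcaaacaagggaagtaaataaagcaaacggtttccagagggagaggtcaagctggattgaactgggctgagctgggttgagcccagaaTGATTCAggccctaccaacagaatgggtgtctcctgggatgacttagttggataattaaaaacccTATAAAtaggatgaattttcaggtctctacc
Sprr1a, chr3:92485882-92486131, minus strand: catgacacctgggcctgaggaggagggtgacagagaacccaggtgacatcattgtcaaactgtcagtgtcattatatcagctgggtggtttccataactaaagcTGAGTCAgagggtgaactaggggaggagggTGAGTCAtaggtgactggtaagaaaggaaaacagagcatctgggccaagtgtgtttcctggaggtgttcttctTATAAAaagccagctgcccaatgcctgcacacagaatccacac
Sprr1b, chr3:92438780-92439029, minus strand: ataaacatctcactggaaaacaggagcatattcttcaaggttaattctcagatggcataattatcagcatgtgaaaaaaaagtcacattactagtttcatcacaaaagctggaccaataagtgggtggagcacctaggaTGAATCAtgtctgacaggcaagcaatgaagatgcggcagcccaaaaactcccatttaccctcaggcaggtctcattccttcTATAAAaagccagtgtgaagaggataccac

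The AP-1 letters lie 81 to 75 bases before the start in Krtdap, 96 to 90 in Rptn, 111 to 105 in Sprr1b, and at both 146 to 140 and 116 to 110 in Sprr1a. RefSeq promoters were matched for 49 of the 55 genes. Of these, 17 (34.7%) hold TGANTCA in the 250 bases, against 1856 of 27018 promoters of all genes (6.87%), and 21 (42.9%) hold TATAAA, against 13% of all promoters. Both the 17 and the 21 include Sprr2b, Sprr2d, Sprr2e, Sprr2f, Sprr2h, Sprr2i and Sprr2k. These are near-identical genes of 1 family, each counted separately, which raises both shares. AACNGGTT was found in Rptn alone among the 49, against 1.71% of all promoters. A match is a description of the letters and not a binding site, and none of the 3 motifs is in the Calm4 window.

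One property of the libraries comes before the results. Each well was labelled with a primer from a set of 30, the same primers were used again in the 12 library pools, and each primer was used for cells of a single group. Wells with the same primer on the same sort date but in different pools shared rare transcripts: over the 8621 genes found in 2 to 20 wells, the median Pearson correlation across genes was 0.228 for 313 such pairs. It was 0.008 for 2003 pairs of the same group and date with other primers in other pools, and 0.018 for 301 pairs with the same primer on the other date. In addition, wells of primer ls_5 (WT GFPhi) and primer ls_12 (KO GFPlo) in the same pool correlated at a median of 0.703 over 7 pools, against 0.009 for 1451 other pairs of different groups in the same pool. The cause was not tested. Wells are therefore not independent, and values below are also given by primer set, meaning the wells of 1 primer on 1 date. There were 54 such sets of 1 to 6 wells, 16 in WT GFPhi, 12 in WT GFPlo, 11 in KO GFPhi and 15 in KO GFPlo.

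**Figure D1:**
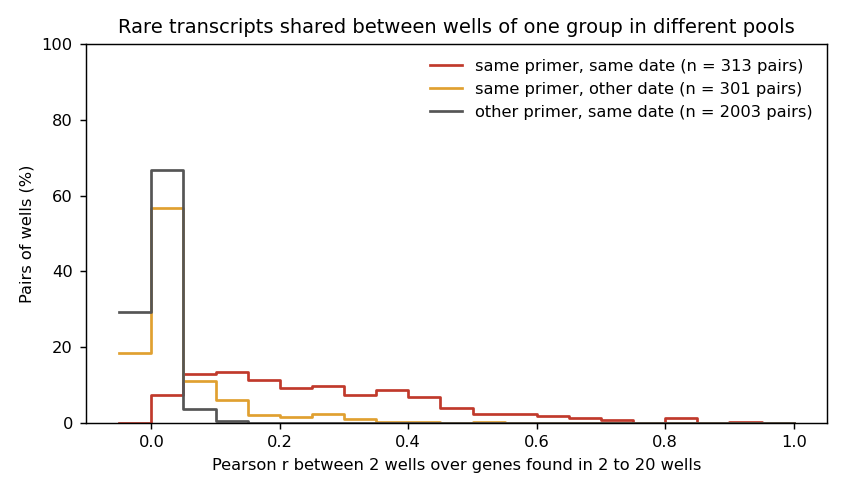
Histogram of the Pearson correlation between pairs of wells of 1 group in different pools (x axis) as the share of pairs in percent (y axis), over genes found in 2 to 20 wells. Pairs with the same primer and date (red) are spread to high correlations with a median of 0.228, while pairs with other primers (grey) sit near 0.

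The shallowest cell had 2429 counts, the median cell 29106.5 and the deepest 370365. Wild-type cells summed to 3468109 counts in GFPhi and 2260672 in GFPlo, and knockout cells to 3011900 and 1847240. Levels are counts per 1000000 counts of the group sum (CPM) with exact Poisson 95% intervals, and ratios carry exact conditional binomial 95% intervals. A group sum of 0 was taken to allow 3 counts, and a fold given as "at least" sets that group at 3 counts. Such a fold leaves out the counting error of the other group. The exact 95% limit is lower, for example 42.2 in place of 52.4 for the Lce sum in KO against WT GFPhi. These intervals and limits cover at most the counting error of sequenced tags, not the spread between wells, primer sets or animals. In sums over cells, fewer positive cells and less RNA per cell cannot be told apart. The epithelial marker Epcam was at 251, 574, 304 and 286 CPM in the groups, in that order. Aire itself was counted at 537, 244, 815 and 316 CPM, so the knockout cells still held counts at this gene. Which stretch of Aire the knockout lacks is not given in the sources used here, so this level does not check the genotype. More counts of 31 leukocyte markers than of 14 epithelial markers were found in 11, 7, 1 and 22 cells of the groups, although CD45+ cells were sorted away.

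Summed over the 55 genes, wild-type cells were at 778 CPM in GFPhi and 2235 in GFPlo, and knockout cells at 373 and 1679. KO GFPhi cells thus held the least transcript of these genes and WT GFPlo cells the most. The level was carried by few wells. In WT GFPhi, single wells ran from 0 to 1620 CPM with a median of 98.5 on the first date, and from 0 to 10142 with a median of 793 on the second. In WT GFPlo the range was 0 to 18537 with a median of 471, and 0 to 37387 with a median of 499. In KO GFPhi it was 16 to 1078 with a median of 102, and 0 to 2342 with a median of 398. In KO GFPlo it was 0 to 5320 with a median of 264, and 0 to 32113 with a median of 314. The ranges overlapped in every pair of groups, and the groups differed in their highest wells far more than in their medians.

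**Figure D2:**
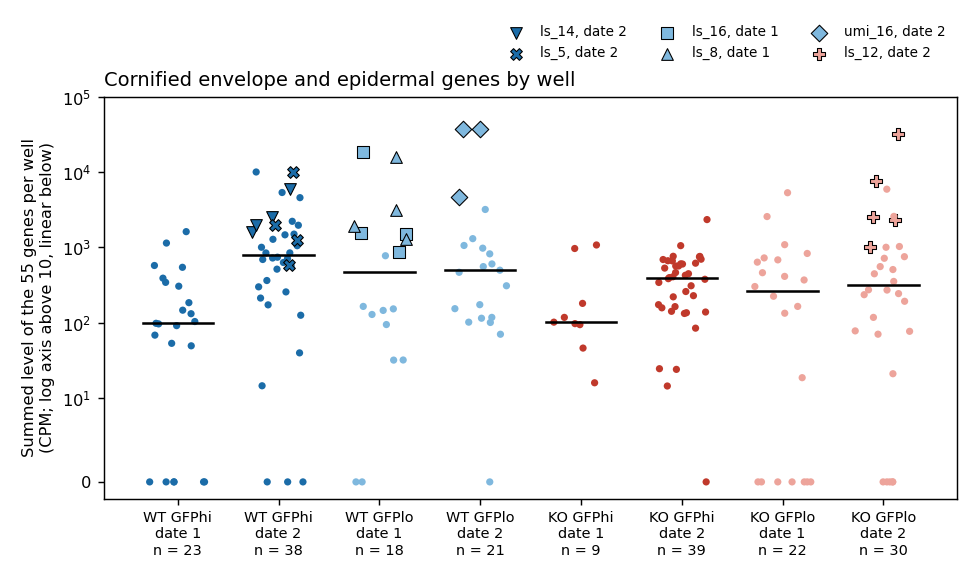
Summed level of the 55 genes in each well (y axis, CPM, log scale above 10 and linear below) by group and sort date (x axis), with 1 point per well, the wells of 6 primer sets drawn as larger symbols, and the median as a bar. The 4 highest wells, from 18537 to 37387 CPM, belong to 3 primer sets of the GFPlo groups, and no KO GFPhi well is above 2342 CPM.

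The leading primer set alone, umi_16 on the second date in WT GFPlo, held 2649 counts in 3 wells, which is 22.1% of all counts of these genes and 52.4% of those in its group. The second, ls_12 on the second date in KO GFPlo, held 2133 counts in 5 wells, 17.8% of all and 68.8% of its group. The 4 leading sets held 55.4%, and the 10 leading sets 73.5%, of the counts. At least 10 of the 55 genes were found in 8 of the 54 sets, 4 in WT GFPhi, 3 in WT GFPlo and 1 in KO GFPlo.

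The leading sets differed in which envelope genes they held. In the set umi_16 the same 14 genes were found in each of its 3 wells. They were led by Krtdap (1396 counts), a small secreted protein of differentiating keratinocytes, Dmkn (dermokine, 512), Sbsn (suprabasin, 262), the filaggrin relative Rptn (repetin, 155) and Calm4 (98), a calmodulin-like protein of skin. Sprr1b and all Lce genes were at 0 in it. The set ls_12 of KO GFPlo was also led by Krtdap (763), but held Sprr1a (279), Calm4 (192), Rptn (155), Sprr1b (72) and the S100-fused hornerin gene Hrnr (66) as well. The set ls_16 of WT GFPlo on the first date (1233 counts in 4 wells) was led by Sprr1a (233) and Rptn (202), with Sprr1b (121), Tgm3 (107), Krtdap (80) and Flg (66).

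A further pattern was that of ls_8 in WT GFPlo on the first date, with 618 counts in 4 wells. Its leading genes were Sprr3 (127), Sprr2d (126), Sprr1a (106), Lce3d (75) and Sprr2e (55), while Krtdap, Calm4 and Rptn were at 0. The WT GFPhi sets of the second date were smaller. Sprr1a led both ls_14 (139 of 393 counts, with 60 of Sprr2d and 53 of the corneodesmosome gene Cdsn) and umi_14 (167 of 380). Rptn led ls_6 (129 of 388), and Krtdap led ls_5 (136 of 382), which also held 61 counts of Calm4. In pools 11 and 12 the ls_5 well and the ls_12 well of the same pool had 12 and 11 of the 55 genes in common. The ls_5 wells held 172 and 188 counts and the ls_12 wells 841 and 1196. No KO GFPhi set is among these leading sets.

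**Figure D3:**
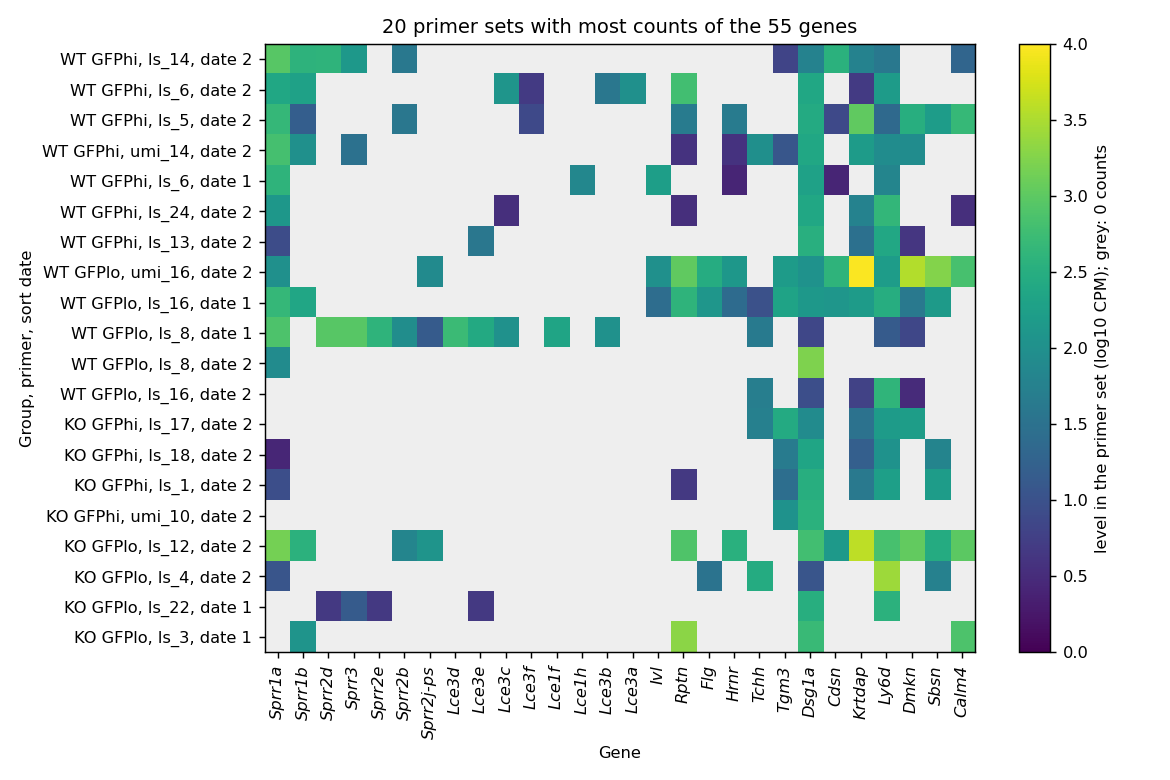
Level of the 28 genes with at least 20 counts (x axis) in the 20 primer sets with most counts of the 55 genes (y axis), coloured by log10 CPM of the set, grey where the set has 0 counts. Krtdap, Dmkn, Sbsn and Calm4 are high in umi_16 and ls_12, Sprr2 and Lce3 genes in ls_8, and the KO GFPhi rows are grey for most Sprr and Lce genes.

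Genes outside the 55 also differed between these sets. Aire had 1 count in the 3 wells of umi_16 (6.87 CPM, against 260 in the other WT GFPlo wells), but 129 counts in the 4 wells of ls_8 (923 CPM against 199). The set ls_12, also led by Krtdap, held 93 Aire counts (480 CPM against 296 in the other KO GFPlo wells). In ls_16 Aire had 74 counts (144 CPM against 273). The flow cytometer's GFP intensity was 2648, 3322 and 2290 in the umi_16 wells of pools 9, 10 and 11, beside a median of 2290 for WT GFPlo cells of that date, so that these wells did not stand out in GFP. The set umi_16 held 2532 of the counts of Cst6, a cysteine protease inhibitor of the epidermis (17405 CPM against 228 in the other wells of the group), and 345 of Spink5, the inhibitor of skin kallikreins (2372 against 0.473). Its keratins were the stress-inducible Krt16 (466 counts) and Krt17 (746) and the basal Krt5 (408) and Krt14 (368), while the suprabasal Krt10 was at 0. In ls_12, Spink5 had 329 counts and the suprabasal Krt77 had 296. In ls_16 it was Krt10 that led, with 1124 counts, all of the Krt10 counts of the WT GFPlo group. Ptprc, which encodes CD45, was at 0 in umi_16 and ls_16 and had 1 count in ls_12 and 2 in ls_8.

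The Sprr genes encode small cross-bridging proteins of the envelope, and held 19.5% of the counts of the 55 genes. Their sum was at 263 CPM in WT GFPhi, 374 in WT GFPlo, 22.9 in KO GFPhi and 277 in KO GFPlo. Sprr1a was at 192 CPM (178–207), 165 (149–183), 22.9 (17.8–29) and 189 (170–210). It was found in 29 of 61, 18 of 39, 6 of 48 and 13 of 52 cells, and over primer sets its highest levels were 928, 758, 968 and 1440 CPM. In KO GFPhi, 63 of its 69 counts lay in 1 well, of primer umi_10 on the first date. Sprr1b, its close relative, was at 36.3 (30.3–43.3), 54 (44.8–64.4), 0 (up to 0.996 at 3 counts) and 56.8 CPM (46.5–68.8). It was found in 5 of 16, 2 of 12, 0 of 11 and 3 of 15 primer sets, so that most sets of every group held 0 counts of it.

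The remaining Sprr genes were narrower still. Sprr2d had 60 counts in WT GFPhi, all in the set ls_14, 126 in WT GFPlo, all in ls_8, 0 in KO GFPhi and 1 in KO GFPlo. Sprr3, best known from oral and esophageal epithelium, had 29, 127, 0 and 3 counts, with the 127 again all in ls_8. Sprr2e had 0, 55, 0 and 2, Sprr2b 11, 20, 0 and 17, and Sprr2j-ps 0, 14, 0 and 23. The Sprr2 genes are near-identical copies, and how reads shared among them were counted is not given in the sources used here, so values of single Sprr2 genes are uncertain. Sprr4, Sprr2a1, Sprr2a2 and Sprr2g were at 0 in all cells, Sprr2a3 had 19 counts, Sprr2i 14, and Sprr2f, Sprr2h and Sprr2k 1 or 2 each.

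The Lce genes, whose products enter the envelope late, held 2.96% of the counts. Their sum was at 52.2 CPM in WT GFPhi (181 counts), 76.1 in WT GFPlo (172), 0 in KO GFPhi and 0.541 in KO GFPlo (1 count). Each Lce gene with at least 20 counts came mainly from 1 primer set. In WT GFPlo this was ls_8 on the first date for Lce3d (all 75 counts), Lce3e (all 37 of the group), Lce1f (all 30), and Lce3b and Lce3c (15 each). In WT GFPhi the sets differed: ls_23 held 37 of the 39 counts of Lce3f, ls_6 held all 28 of Lce1h on the first date and, on the second, all 21 of Lce3a and 25 of 27 of Lce3c. All 6 Lce3 genes had counts, 251 in sum, while 8 of the 14 Lce1 genes were at 0 in every cell, and so was Lce6a.

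Of the S100-fused genes, whose products bind calcium and bundle or embed keratin filaments, Rptn had the most counts. It was at 39.8 CPM (33.4–47) in WT GFPhi, 158 (142–176) in WT GFPlo, 0.332 (0.00841–1.85) in KO GFPhi and 132 (116–149) in KO GFPlo, in 10, 8, 1 and 10 cells. In KO GFPhi this was a single count. The filaggrin gene Flg had 110 counts in WT GFPlo, in 8 cells of 3 primer sets, 3 in KO GFPlo and 0 in both GFPhi groups. Hrnr was at 3.17, 14.2, 0 and 35.7 CPM, with all 66 counts of KO GFPlo in ls_12. Tchh (trichohyalin, of hair follicle and tongue) was at 7.21, 12.4, 4.65 and 14.1 CPM, from 1, 4, 2 and 2 cells. Flg2 was at 0 throughout. Rptn, Hrnr and Tchh overlap a gene annotated on the opposite strand, and reads of the 2 cannot be told apart where counting ignored strand.

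Of the scaffold proteins, loricrin (Lor), a major protein of the envelope in skin, had 0 counts in all 200 cells. Involucrin (Ivl), the early scaffold, was at 20.2 CPM (15.7–25.5) in GFPhi cells and 12.8 (8.59–18.4) in GFPlo cells of wild-type mice, and at 0 in both KO groups (which allows up to 0.996 CPM in GFPhi and 1.62 in GFPlo). Of its 70 WT GFPhi counts, 67 lay in 1 well.

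The adhesion genes hold the outer cell layers together, and Dsg1a, a desmosomal cadherin, was the most widely found of the 55 genes, with counts in 127 cells and 47 of the 54 sets. Its level was 163 CPM (150–177) in WT GFPhi, 143 (128–159) in WT GFPlo, 174 (160–190) in KO GFPhi and 161 (144–181) in KO GFPlo. The KO to WT ratio was 1.07 (0.947–1.2) in GFPhi and 1.13 (0.961–1.33) in GFPlo, and both intervals include 1. In the first date's GFPhi cells alone its levels were 57.5 CPM in KO and 168 in WT. Cdsn, the glycoprotein of corneodesmosomes, was at 15.9 (11.9–20.6), 54.4 (45.2–64.9), 0 (up to 0.996) and 15.2 CPM (10.1–21.9), and 53 of its 55 WT GFPhi counts were in ls_14. Dsc1 had 10 counts in all.

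Among the enzymes, Tgm1, the transglutaminase best known for cross-linking the envelope, had 3 counts in all cells, and Casp14, the caspase of cornifying skin, had 15, of which 14 were in ls_12. Tgm3, another transglutaminase of skin and hair, was at 8.94 CPM (6.07–12.7) in WT GFPhi, 59.7 (50.1–70.7) in WT GFPlo, 44.2 (37–52.3) in KO GFPhi and 4.87 (2.23–9.25) in KO GFPlo. In GFPhi its KO level was 4.94 times the WT level (3.32–7.56), and in KO cells its GFPhi level was 9.06 times the GFPlo level (4.63–20.3). Of its 133 KO GFPhi counts, 71 were in the set ls_17 on the second date. The log2 ratio of KO to WT in GFPhi was 2.29, but 1.30 without the leading primer set of each group and 0.57 with 1 well per primer and date.

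The small, secreted or surface proteins held 49.1% of the counts, and Krtdap alone 21%. Krtdap was at 60.6 CPM (52.6–69.3) in WT GFPhi, 665 (632–699) in WT GFPlo, 10.3 (6.99–14.6) in KO GFPhi and 414 (385–445) in KO GFPlo, in 21, 15, 11 and 7 cells. Over primer sets its median was 0 CPM in all 4 groups, and its highest set was at 1057, 9596, 41.5 and 3938 CPM. Of its GFPlo counts, 1396 of 1503 in WT were in umi_16 and 763 of 765 in KO were in ls_12. Calm4 was at 19.9 (15.5–25.2), 43.8 (35.6–53.3), 0 (up to 0.996) and 133 CPM (117–151), with 61 of its 69 WT GFPhi counts in ls_5, 98 of 99 in WT GFPlo in umi_16 and 192 of 246 in KO GFPlo in ls_12. In each of these 3 groups the Calm4 counts thus came mainly from the sets that also led for Krtdap.

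Dmkn was at 19.6, 240, 36.2 and 126 CPM and Sbsn at 6.34, 157, 19.6 and 33, again with most GFPlo counts in umi_16 and ls_12. Both were the higher in KO of the GFPhi cells, Dmkn 1.85 times (1.35–2.54) and Sbsn 3.09 times (1.86–5.29), from 109 and 59 KO counts. Of these Dmkn counts 63 were in 1 well of the set ls_18 on the first date, when WT GFPhi had 0, and on the second date Dmkn was the lower in KO (45 against 68 counts, log2 −0.50). Of the Sbsn counts 35 were in ls_1. Ly6d, a surface protein of stratified epithelium that early B cells also carry, was at 96.6 (86.5–108), 176 (159–194), 58.1 (49.8–67.4) and 323 CPM (297–350). It was found in 20 of 41 wells with more leukocyte than epithelial marker counts (48.8%, exact binomial 95% interval 32.9–64.9) and in 60 of the 159 others (37.7%, 30.2–45.8), at 198 and 126 CPM. These intervals treat wells as independent, which wells of 1 primer set are not, so they are too narrow. For Krtdap, Calm4, Rptn, Sprr1a, Sprr1b and Dsg1a the order was the reverse, and the part of leukocytes in the Ly6d level was not tested. Krtdap was found in 6 of the 41 (14.6%, 5.57–29.2) and 48 of the 159 (30.2%, 23.2–38), at 5.48 and 304 CPM. Rptn was at 1.26 and 89.7 CPM and Sprr1b at 10.5 and 39.9, with median totals of 20388 counts in the leukocyte-marked wells and 30805 in the others.

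**Figure D4:**
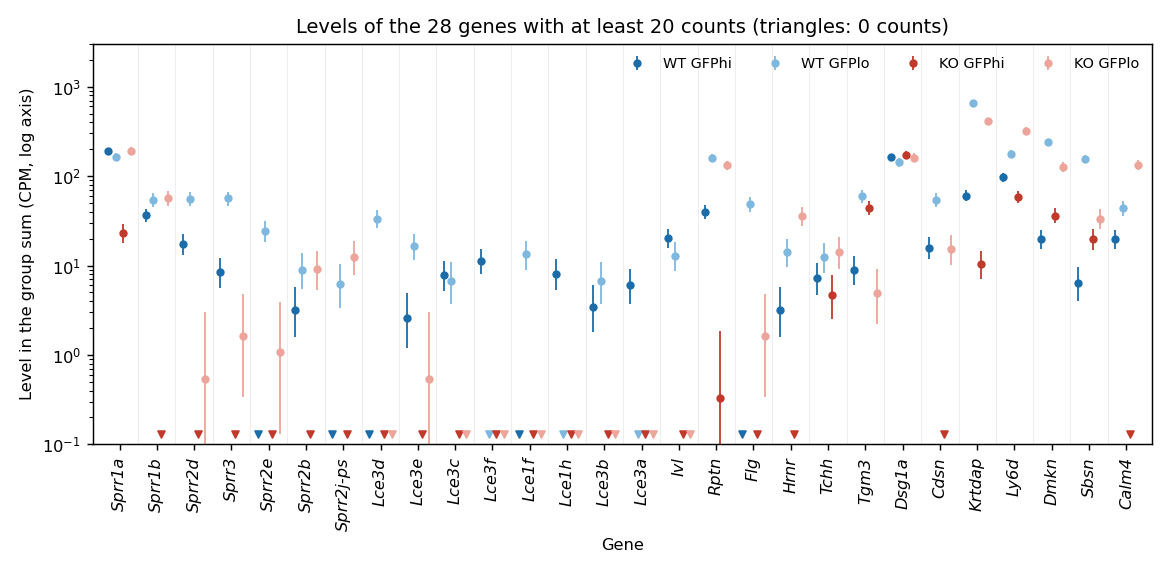
Level in the group sum (y axis, CPM, log scale) of the 28 genes with at least 20 counts (x axis) in the 4 groups, with exact Poisson 95% intervals for counting error and triangles where the group has 0 counts. Dsg1a is at 143 to 174 CPM in all groups, whereas Sprr1b, Calm4, Cdsn and the Lce genes have 0 counts in KO GFPhi.

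The comparison of KO with WT in GFPhi cells asks how the knockout of Aire bears on these genes where the reporter is high. Their summed level was 373 CPM in KO against 778 in WT, a ratio of 0.479 (0.447–0.514). The log2 ratio was −1.06, and −0.92 and −1.15 on the first and second date. Without the broadly found Dsg1a and Ly6d the ratio was 0.271 (0.243–0.302). The Sprr sum was 11.5-fold lower in KO (8.98–14.9), the Lce sum at least 52.4-fold lower, and the S100-fused sum 10.1-fold lower (5.94–18.4), while the adhesion sum was at 176 against 180 CPM and the enzyme sum 4.98 times as high in KO (3.35–7.61). The Sprr and Lce genes together had 65 counts in KO and 213 in WT on the first date, and 4 against 880 on the second, so that the gap was wider on the second date, a difference between dates that was not tested.

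Of the 26 members with at least 10 counts in these groups, 19 were at least 4-fold lower in KO. Of all 15033 genes with at least 10 counts, 17.8% were. Among genes of 10 to 99 counts it was 15 of 18 members, beside 29.4% of all such genes. A single member, Tgm3, was at least 4-fold higher, beside 9.23% of all genes. The median log2 ratio of the 26 was −4.55, or −2.42 with genes at 0 set at 3 counts, against −0.13 over all genes tested. In KO 16 of the 26 were at 0, so these reached 10 counts through WT alone and could only come out lower. Of the 26, 18 had 10 to 99 counts, as had 6415 of the 15033 genes, so the medians compare genes of unlike counts. Of the 19, 15 still passed 4-fold with genes at 0 set at 3 counts. On that scale Sprr1b was at least 36.5-fold lower, Ivl at least 20.3-fold, Calm4 at least 20-fold, Sprr2d at least 17.4-fold and Cdsn at least 15.9-fold lower. Rptn was 120-fold lower, with an interval of 21.2 to 4768 that reflects its single KO count, and Krtdap was 5.88-fold lower (4.02–8.88). Except for Sprr1b (57 of 126 in ls_14), the WT GFPhi counts of these genes came mainly from 1 primer set each. It was ls_6 for Ivl (69 of 70, first date) and Rptn (129 of 138, second date). On the second date it was ls_5 for Calm4 (61 of 69) and Krtdap (136 of 210), and ls_14 for Sprr2d (60 of 60) and Cdsn (53 of 55).

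How many members passed depended on the wells used. The count was 16 on the second date alone but 2 on the first, when KO GFPhi held 9 cells, 14 without primers ls_5 and ls_12, and 10 with 1 well per primer and date. The numbers tested and the shares of all genes in these subsets are not given here. These counts therefore do not set the members beside other genes. Without ls_5 and ls_12 the log2 ratio of Krtdap was −1.15 in place of −2.54, while that of Sprr1b was −7.87 and that of Rptn −6.37. Calm4 then had fewer than 10 counts in the pair and has no ratio. Sprr1a had a log2 ratio of −3.06 over both dates, −1.03 on the first and −6.66 on the second. Leukocyte markers moved with this comparison as well. Of 31, 27 had at least 10 counts, and 10 of these were at least 4-fold lower in KO, beside 17.8% of all genes. Only 1, Dntt, was at least 4-fold higher (18.3 against 0.288 CPM). The 31 summed to 1970 CPM in KO against 8005 in WT, of which Igj alone was 89.3 and 5301. Over single wells that sum ran from 232 to 6555 CPM in KO and from 521 to 55862 in WT, and of the T cell markers Cd8b1 and Ptcra were at 0 in both. In WT GFPhi the 11 leukocyte-marked wells held the 55 genes at 299 CPM and the 50 others at 954 (KO GFPhi others 378), and without such wells in either group the log2 ratio of the sum was −1.34.

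Counted per cell, at least 5 of the 55 genes were found in 10 of 55 WT GFPhi cells (18.2%, exact binomial 95% interval 9.08–30.9) and 8 of 32 WT GFPlo cells (25%, 11.5–43.4). In the knockout it was 1 of 44 GFPhi cells (2.27%, 0.0575–12) and 3 of 48 GFPlo cells (6.25%, 1.31–17.2). For this each cell was thinned to 10000 counts, which left out 6, 7, 4 and 4 shallower cells. The positive cells came from 4, 3, 1 and 1 primer sets, so the intervals, which treat cells as independent, are too narrow and compare no groups. Without thinning the shares were 41% of 61 WT GFPhi and 28.2% of 39 WT GFPlo cells, and in the knockout 4 of 48 GFPhi and 8 of 52 GFPlo cells. At least 10 genes in 1 thinned cell were found in 2, 4, 0 and 2 cells.

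In GFPlo cells the summed level was 1679 CPM in KO against 2235 in WT, a ratio of 0.751 (0.718–0.786). The log2 ratio was −0.41, and −1.49 and −0.23 on the first and second date. The order was not stable: the log2 ratio was 0.66 with ls primers alone, 0.76 with 1 well per primer and date, 0.13 without pool 9 and −1.85 without ls_5 and ls_12. At least 4-fold lower in KO were 12 of 26 members, beside 15.3% of all genes, and 1 (Casp14) was at least 4-fold higher, beside 12.6%. The 12 were Sprr2d, Sprr2e, Sprr3, Lce1f, Lce3b, Lce3c, Lce3d, Lce3e, Flg, Ivl, Tgm3 and Sbsn. For 8 of them, from Sprr2d to Lce3e in this list, all WT GFPlo counts came from the single set ls_8. In KO 5 of the 26 were at 0, so these reached 10 counts through WT alone and could only come out lower. By date the count of members at least 4-fold lower was 19 on the first and 3 on the second. The numbers tested and the shares of all genes by date are not given here, and the difference between dates was not tested. Members high in KO GFPlo included Calm4, at 3.04 times the WT level (2.4–3.88), and Ly6d, at 1.83 times (1.61–2.09). Of the Calm4 counts in KO, 192 of 246 were in ls_12. Ly6d had a log2 ratio of −0.42 on the first date (79 against 170 counts) and 1.18 on the second (517 against 228). Sprr1b had a ratio of 1.05 (0.804–1.38) over both dates, with a log2 ratio of −1.18 on the first (33 against 121 counts) and 5.60 on the second (72 against 1). The KO GFPlo group held 22 leukocyte-marked wells with the 55 genes at 424 CPM and 30 others at 2777, close to the 2814 of the 32 other WT GFPlo wells, and the log2 ratio without marked wells was −0.02.

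Between GFPhi and GFPlo cells of WT mice the summed level was 778 against 2235 CPM, a ratio of 0.348 (0.332–0.365, log2 −1.52), with −1.97 and −1.51 by date. Of 32 members tested 12 were at least 4-fold lower in GFPhi, beside 12.3% of all genes, and 6 at least 4-fold higher, beside 16.5%. Lower were Krtdap (11-fold, 9.5–12.7), Dmkn (12.2-fold, 9.49–16), Sbsn (24.7-fold, 16–39.9), Tgm3 (6.68-fold, 4.49–10.2) and, at 0 in GFPhi, Flg (at least 56.3-fold) and Lce3d (at least 38.4-fold). The 6 higher were Sprr2a3, Lce1e, Lce1h, Lce1m, Lce3a and Lce3f, all at 0 in GFPlo, and 3 of them passed 4-fold with GFPlo set at 3 counts. Of the 32, 5 were at 0 in GFPhi and 6 in GFPlo, so their direction was fixed by the minimum count. Sprr1a had a ratio of 1.16 (1.02–1.32) over both dates, with a log2 ratio of −1.01 on the first (183 against 345 counts) and 3.06 on the second (484 against 29), a difference between dates that was not tested. Without the leading primer set of each group the log2 ratio of the sum was −0.71, that of Krtdap was 0.26 in place of −3.45, and that of Dmkn 0.52 in place of −3.60. For these 2 genes the direction rests on umi_16, which held 1396 of 1503 WT GFPlo counts of Krtdap and 512 of 542 of Dmkn.

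In KO cells the summed level was 373 CPM in GFPhi against 1679 in GFPlo, a ratio of 0.222 (0.207–0.238, log2 −2.17), with −1.40 and −2.42 by date. Of 16 members tested 11 were at least 4-fold lower in GFPhi, beside 14.1% of all genes, and Tgm3 was at least 4-fold higher, beside 12.5%. In GFPhi 7 of the 16 were at 0, so these reached 10 counts through GFPlo alone and could only come out lower. Among genes of 10 to 99 counts 5 of 6 members were at least 4-fold lower and 0 higher, beside 22.8% and 19.2% of all such genes. Krtdap was 40.2-fold lower (28.1–59.6), Calm4 at least 134-fold, Sprr1b at least 57.1-fold, and Ly6d 5.55-fold lower (4.68–6.61). The Krtdap difference came from ls_12: without ls_5 and ls_12 its log2 ratio was 2.71, and that of the summed level −0.73. With umi primers alone the summed level was the higher in GFPhi (log2 1.05). Ly6d had a log2 ratio of −2.35, Sprr1b of −7.01 and Calm4 of −7.71 without these primers. The comparisons share groups, so they are not independent of each other.

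The genes lie in clusters on the genome (GENCODE M21, GRCm38). On chromosome 3, 44 of the 55 lie between 92080271 and 93449077, a span of 1.37 Mb known as the epidermal differentiation complex, which holds the Sprr, Lce and S100-fused genes with Lor and Ivl. These 44 received 3846 counts. Sbsn, Dmkn and Krtdap are neighbours within 39.6 kb on chromosome 7 (30751471 to 30791097) and received 3956. In KO GFPhi the chromosome 3 cluster was nearly empty, with 84 counts, from Sprr1a (69), Tchh (14) and Rptn (1), whereas the neighbours on chromosome 7 were all found there (Krtdap 31, Dmkn 109 and Sbsn 59 counts).

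**Figure D5:**
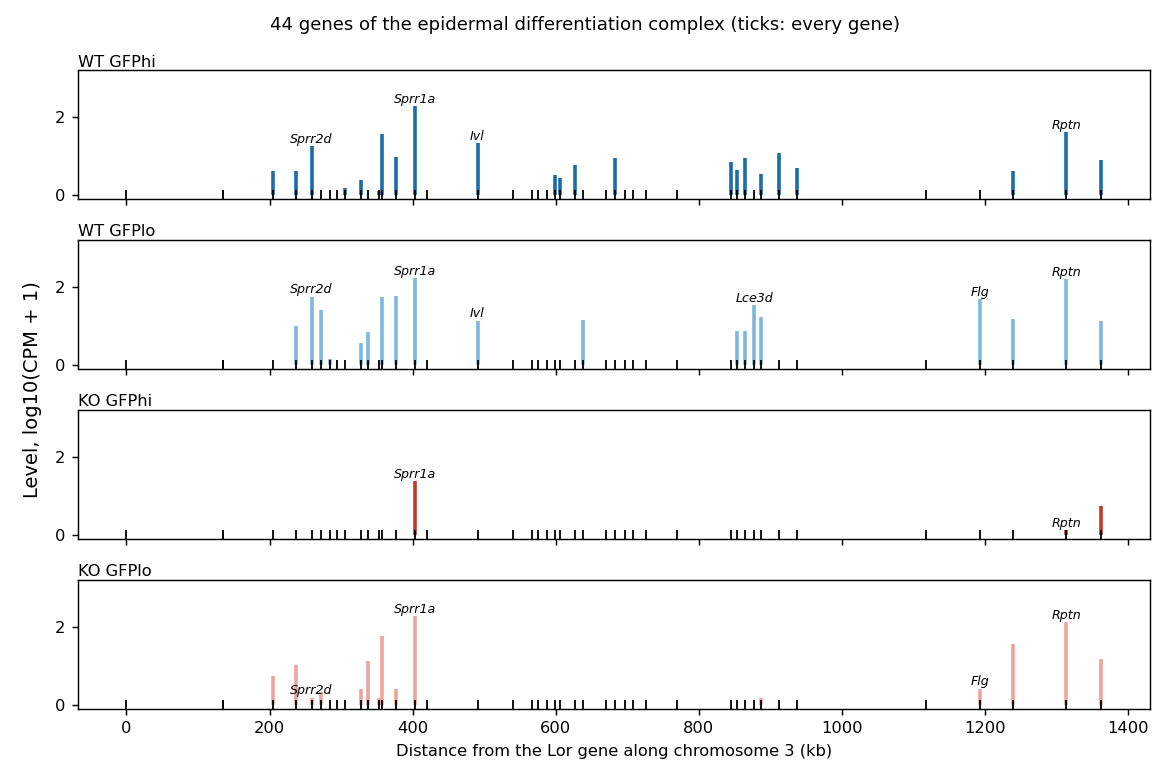
Level of each gene of the epidermal differentiation complex (y axis, log10 of CPM + 1) along chromosome 3 by distance from Lor (x axis, kb) in the 4 groups, with ticks for all 44 genes. Bars are spread over the whole cluster in WT GFPhi and WT GFPlo, while KO GFPhi has 3 bars (Sprr1a, Rptn and Tchh) and KO GFPlo has nearly none in the Lce stretch.

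Other epidermal genes, from lists outside the 55, differed unevenly between KO and WT in GFPhi cells. Of the suprabasal keratins, which fill differentiating keratinocytes, 5 of 7 with at least 10 counts were at least 4-fold lower in KO and 0 higher, and their sum was at 64.7 against 531 CPM (0.122, 0.105–0.141). They included Krt4 (3.32 against 144 CPM), Krt13 (1.66 against 92.8), both known from oral and esophageal epithelium, and Krt16 (7.97 against 77.3). The WT counts of these 3 came from 12, 5 and 26 cells of 5, 2 and 12 primer sets. Krt10 (13.9 against 18.7 CPM) and Krt78 (18.6 against 36.6), with Krt16 the genes of this list with most counts, were not among those past 4-fold. Of the skin proteases and their inhibitors, 10 of 17 were at least 4-fold lower and 0 higher. Cst6 was at 120 against 644 CPM, Klk13 at 0 against 20.8, and Spink12 at 0.996 against 362 CPM, from 33, 10 and 5 WT cells. Serpinb2 and Serpinb12, with Cst6 the genes of this list with most counts, went the other way. They were at 230 against 66.3 CPM and 275 against 206, both under 4-fold. In the other envelope and desmosome genes 3 of 17 were lower, near the 17.8% of all genes. Among them were cornifelin (Cnfn, 0.996 against 83.3 CPM) and periplakin (Ppl, 0 against 19.3), from 5 and 10 WT cells. Tgm5, a transglutaminase, was higher (17.9 against 3.75). The ratio of the sums was 0.998, with an interval (0.965–1.03) that includes 1.

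Of the transcription factors of epidermal differentiation, 4 of 22 were at least 4-fold lower in KO GFPhi, near the 17.8% of all genes. Among them were Hopx (11.6 against 74.7 CPM), Prdm1 (3.98 against 28.8) and Elf5 (0.332 against 11), from 20, 12 and 3 WT cells. Hes1 was higher (12.6 against 1.44). The sum of the list was at 714 against 807 CPM, and Klf4 was at 16.9 against 48.4. Of the barrier lipid list 3 of 15 were lower, again near that share. These were Alox12b, Smpd1 and Sptlc3, from 5, 15 and 2 WT cells. Asprv1, a protease in that list that processes filaggrin, was at 70.1 against 73.8. The basal keratins as a sum were higher in KO (1803 against 1071 CPM, 1.68, 1.61–1.75). Krt5 was at 199 against 40.7 and Krt14 at 347 against 194, while Krt15 was at 13.6 against 73, the last from 6 WT cells. The share of all genes at least 4-fold lower or higher in this comparison is the 17.8% and 9.23% given above.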

How the data were processed

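Whole-number counts per gene and cell were taken as the authors deposited them, unnormalized. The tools listed in the submitters' processing notes, with no role or order, are HTSeq, SAMtools 0.1.19, Picard 1.79 and TopHat (also as TopHat2), with build mm10. A cell's total was above its deposited identifier count in 40 cells and above its unique reads in 0, so counts were read as sequenced tags. Per the file headers, the metadata also hold flow cytometer intensity in arbitrary units and sort dates. No cell was filtered out of the 200, no doublet step was run, and 0 columns were left without a sample.

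Counts were summed per group, since the labels name no animal, and no test was made. A member was tested at 10 counts in the pair or more and called at 4-fold. A gene at 0 in 1 group reaches that minimum through the other group alone, so its direction is then fixed. For log2 ratios 0.5 count was added to either sum, and a group at 0 was set at 3 counts for a bound. The replicate unit would be the animal, so edgeR served only for TMM scaling. The calling of fold differences was tested on simulated group sums with Poisson counting error only. These held no spread between wells, primer sets or animals, so the check does not cover the clustering of counts in primer sets. Leukocyte-marked wells had more counts of leukocyte than of epithelial markers. Alternatives were scaling, count minimum, date, primer kind, pool, cells or members left out, and 3 settings on primers added after the sharing between wells was seen.

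The members and lists were chosen with earlier results of these data known. Members with at least 20 counts are given in every group. Of the other epidermal lists, the 3 genes with most counts and those past 4-fold between KO and WT GFPhi with at least 20 counts could be named, and markers and Aire were named in advance. Leading primer sets and their other genes were singled out after their values were seen. Tools were edgeR 4.0.16 in R 4.3.3 and, in Python 3.11.15, pandas 2.3.3, numpy 2.4.6, matplotlib 3.10.9 and scipy 1.17.1. Gene positions came from GENCODE M21 and promoters from RefSeq, both on GRCm38, the build called mm10. Protein sequences were not used here, and 1 gene of these lists is not reported here.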

Additional observations from a re-analysis of the deposited data

Results flagged for a closer look

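For 9 genes, 10 ratios were at least 4-fold in opposite directions on the 2 sort dates, with at least 10 counts on each date. The difference between dates was not tested, and with groups at 0 counts on a date these log2 ratios are no bounds. Between GFPhi and GFPlo in WT, the first and second date gave −6.44 and 5.41 for Sprr1b, −5.46 and 3.55 for Sprr2b, −8.08 and 5.95 for Sprr2d, and −6.51 and 4.86 for Sprr3. In the same comparison they gave −5.05 and 3.67 for Lce3b, −5.05 and 4.81 for Lce3c, and, in the other order, 2.18 and −5.93 for Ivl. Between KO and WT in GFPlo they gave −2.01 and 3.33 for Sprr1a and −4.68 and 5.13 for Sprr2b. Between GFPhi and GFPlo in KO they gave 6.68 and −3.24 for Dmkn. On the first date the WT GFPlo counts of Sprr2d, Sprr3, Lce3b and Lce3c were all from the set ls_8, and those of Sprr1b from ls_16. On the second date the 60 WT GFPhi counts of Sprr2d were all in ls_14.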

How the results depend on the processing

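The log2 ratio of the summed level between KO and WT in GFPhi was −1.06. It was −1.46 as the mean of per-cell levels, −0.92 on the first date and also with umi primers alone, −1.34 without leukocyte-marked cells, −0.95 without ls_5 and ls_12, and −0.77 with 1 well per primer and date. Leaving out each pool gave −1.19 to −0.91. In GFPlo the main value of −0.41 became −1.28 as the mean of per-cell levels, −1.49 and −0.23 by date, 0.66 with ls and −4.79 with umi primers, −0.02 without leukocyte-marked cells, −0.57 without the leading cells and −0.31 without Krtdap. It was −1.85 without ls_5 and ls_12, 0.76 with 1 well per primer and date, −0.95 without the leading primer sets, and −1.23 to 0.13 over pools, the last without pool 9.

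Between GFPhi and GFPlo in WT, −1.52 became −1.60 as the mean of per-cell levels, −1.97 on the first date, −0.75 with ls and −2.82 with umi primers, −1.10 without the leading cells, −1.13 without Krtdap, −1.64 without ls_5 and ls_12, −0.30 with 1 well per primer and date, −0.71 without the leading sets, and −1.79 to −1.07 over pools. In KO, −2.17 became −2.05 with TMM, −1.79 as the mean of per-cell levels, −1.40 and −2.42 by date, −2.51 with ls and 1.05 with umi primers, −2.88 without leukocyte-marked cells, −1.56 without the leading cells, −1.80 without Krtdap, −0.73 without ls_5 and ls_12, −1.83 with 1 well per primer and date, −0.80 without the leading sets, and −2.35 to −1.59 over pools.

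The 19 members lower in KO GFPhi became 9 at a minimum of 30 counts, where fewer genes were tested, 2 on the first date, 10 with 1 well per primer and date, and 13 to 19 over pools. The 12 lower in KO GFPlo became 19 and 3 by date, 6 with 1 well per primer and date, and 10 to 14 over pools. The 6 higher in WT GFPhi became 1 at 30 counts, 2 and 12 by date, and 3 to 7 over pools. Numbers tested and shares of all genes under these settings are not given here, so these counts do not set members beside other genes. Of 510 values for 55 named ratios, 431 stayed within the counting interval of the main ratio, 72 kept the direction but lay outside it, and 7 turned direction. Among those that kept it, 25 were under 4-fold. Those that turned were, between GFPhi and GFPlo in WT, Sprr3 on the second date (4.86), Krtdap with ls primers (0.14) and without the leading sets (0.26), and Dmkn without the leading sets (0.52), and in KO, Sprr1a with umi primers (6.26) and Krtdap without ls_5 and ls_12 (2.71) or the leading sets (2.49). The cause was not tested. No paired analysis was possible because replicate numbers only name cells and no test was made. Depth limits the rest: in KO GFPhi, 0 counts allow a level of up to 0.996 CPM (3 counts).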
